A study of Mus musculus with 6 samples.

Results

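The 9 genes described here are the transcription factors Snai1, Snai2, Zeb1, Zeb2, Twist1 and Prrx1, the intermediate filament gene Vim, and the cadherin genes Cdh1 and Cdh2. They were chosen by gene symbol from a raw count table of 18260 genes, and all 9 were among the 14552 genes with enough reads to be tested. RNA sequencing was run on primary hepatocytes from liver tumours of male mice. The Ripply1 ΔHep group had loxP sites around exons 1 to 3 of Ripply1 together with the Alb-Cre transgene, a recombinase driven by the albumin promoter, which is active in hepatocytes and not in the stromal or blood cells of the liver. The Ripply1 F/F group had the same loxP sites without the transgene. Both groups had 3 libraries, and both had received 90 μg per g of the carcinogen diethylnitrosamine (DEN) at 6 weeks of age. After 3 weeks without treatment they were fed 0.05% phenobarbital (PB, a tumour promoter) for 27 weeks, and cells were taken 30 weeks after the injection. The labels do not say whether each library is a separate animal, and p-values measure the spread between these libraries, which may be technical.

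Epithelial-mesenchymal transition (EMT) is the change by which polarised, tightly joined epithelial cells loosen their contacts and take on the shape and filaments of migrating mesenchymal cells. The zinc finger proteins of the Snail and ZEB families, the helix-loop-helix protein TWIST1 and the homeobox protein PRRX1 drive it. Snail and ZEB proteins bind E-box sequences and repress Cdh1, which encodes E-cadherin. In many epithelia the loss of E-cadherin is paired with a gain of N-cadherin, the product of Cdh2, a change known as the cadherin switch. Hepatocytes differ in that they carry both cadherins in the healthy liver. Vimentin is the filament of mesenchymal cells, and hepatic stellate cells, fibroblasts, endothelial cells and leukocytes all make it.

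Ripply1 itself had 1, 1 and 2 counts in ΔHep replicates 1, 2 and 3, against 13, 8 and 12 counts in F/F replicates 1, 2 and 3. Library totals ran from 27772849 to 35894395 counts, and 1 CPM (counts scaled to a common library size) stood for 26.7 to 37.9 counts. The 14 hepatocyte marker genes summed to between 131890 and 155364 CPM in ΔHep libraries and between 143284 and 150610 CPM in F/F libraries. Alb alone had between 70282 and 95219 CPM in ΔHep libraries and between 81885 and 88838 CPM in F/F libraries. Alb was the largest part of these sums, and they do not measure how pure the hepatocytes were. Among F/F libraries the sums did not follow Alb, since replicate 3 had the least Alb but a sum of 150521 CPM, against 143284 in replicate 2. Markers of other liver cells were detected too, except the lymphocyte marker Cd2 and the mesothelial marker Krt5, which the count table did not hold. The count table held no gene at 0 in all libraries. F/F replicate 3 was the highest F/F library for 7 of the 9 genes. Its macrophage markers summed to 947 CPM, against 374 and 423 CPM in F/F replicates 1 and 2, and to between 923 and 1137 CPM in ΔHep libraries. Its summed stellate cell, endothelial, lymphocyte and cholangiocyte markers were also the highest of the F/F libraries.

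Of the 9 genes, 1 rose in ΔHep libraries and 0 fell at an adjusted p below 0.05. That gene was Vim, at 2.43 times its F/F level (95% interval 1.79 to 3.31). Over all tested genes, 1.68% passed this threshold in either direction with 1.51% higher and 0.165% lower. None of the 6 transcription factors passed (0 in edgeR, 0 in DESeq2 and 0 in limma-voom), although 2 of them, Snai1 and Zeb2, were higher at an unadjusted p below 0.05. Neither cadherin passed: Cdh1 was higher in 2 of 3 ΔHep libraries, and Cdh2 was level. With Vim and Cdh1, an unadjusted p below 0.05 was reached by 4 of the 9 genes upward and by 0 downward, beside 14.1% upward and 6.97% downward over all tested genes. Fold changes were positive for 8 of the 9 genes with a median of 0.51 on the log2 scale, beside 48.8% positive and a median of -0.01 over all tested genes. The 3 ΔHep libraries all lay above the 3 F/F libraries for 2 of the 9 genes, Vim and Snai1, and all below them for 0, beside 15.3% and 11.8% of all tested genes. Log2 differences below are log2 fold changes of ΔHep over F/F, so a positive one means higher in ΔHep.

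**Figure D1:**
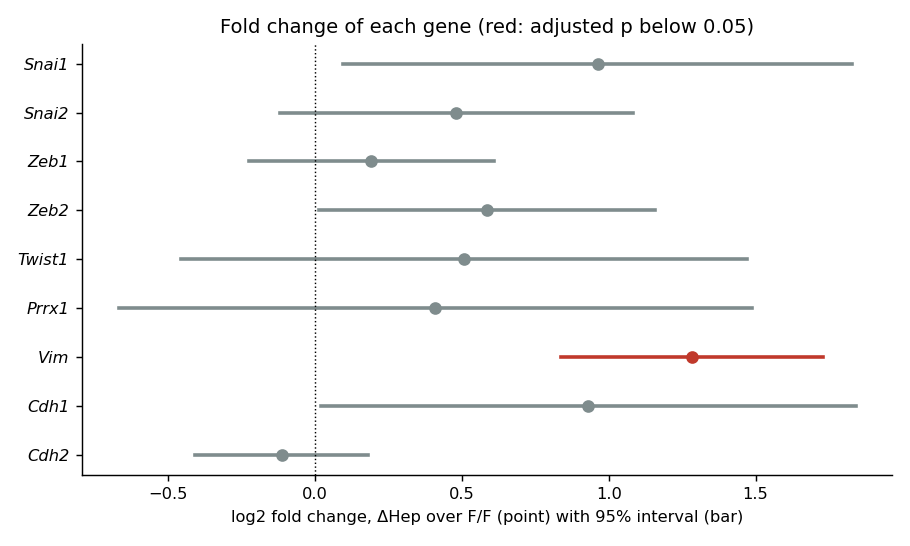
Log2 fold change of ΔHep over F/F (horizontal axis) for each of the 9 genes, with its 95% interval from edgeR, red where the adjusted p is below 0.05. Vim lies at 1.28 with an interval from 0.84 to 1.73, while the interval of Cdh2 spans 0.

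Levels can be set between genes only after division by gene length. On that scale, CPM per kilobase of annotated exon, the 2 cadherins and vimentin formed an upper tier and the 6 transcription factors a lower one. In ΔHep libraries Cdh1 averaged 15.2 ± 7.77, Vim 14.6 ± 3.31 and Cdh2 12.4 ± 1.45 CPM per kilobase (SD, n = 3 each), and the ranges of the 3 genes overlapped. In F/F libraries Cdh2 averaged 13.5 ± 1.55, Cdh1 7.99 ± 2.31 and Vim 5.98 ± 1.24 CPM per kilobase (SD, n = 3 each), with Cdh2 above Cdh1 in every library and Cdh1 and Vim overlapping. In ΔHep the overlap of Cdh1 with Vim and Cdh2 rests on the spread of Cdh1, which ran from 6.26 to 19.9 CPM per kilobase there. The ranges of Vim and Cdh2 overlapped each other whatever the spread of Cdh1. Overlapping ranges do not show a common level.

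Among the factors, Snai2 came first in both groups, at 3.01 ± 0.710 CPM per kilobase in ΔHep and 2.16 ± 0.588 in F/F libraries (SD, n = 3 each). Zeb1 followed at 2.07 ± 0.231 and 1.82 ± 0.440, and its range overlapped that of Snai2 in both groups. Zeb2 lay below Zeb1 without overlap, at 1.26 ± 0.0409 in ΔHep and 0.842 ± 0.344 in F/F libraries. Snai1 came next and overlapped with Zeb2 above it and with Twist1 below it in both groups, and Prrx1 was last, at 0.0996 ± 0.0456 in ΔHep and 0.0743 ± 0.0318 in F/F libraries. The lengths are unions of all annotated exons, from 1621 bases for Snai1 to 19942 bases for Zeb2, so a gene whose cells use a short transcript is placed too low.

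**Figure D2:**
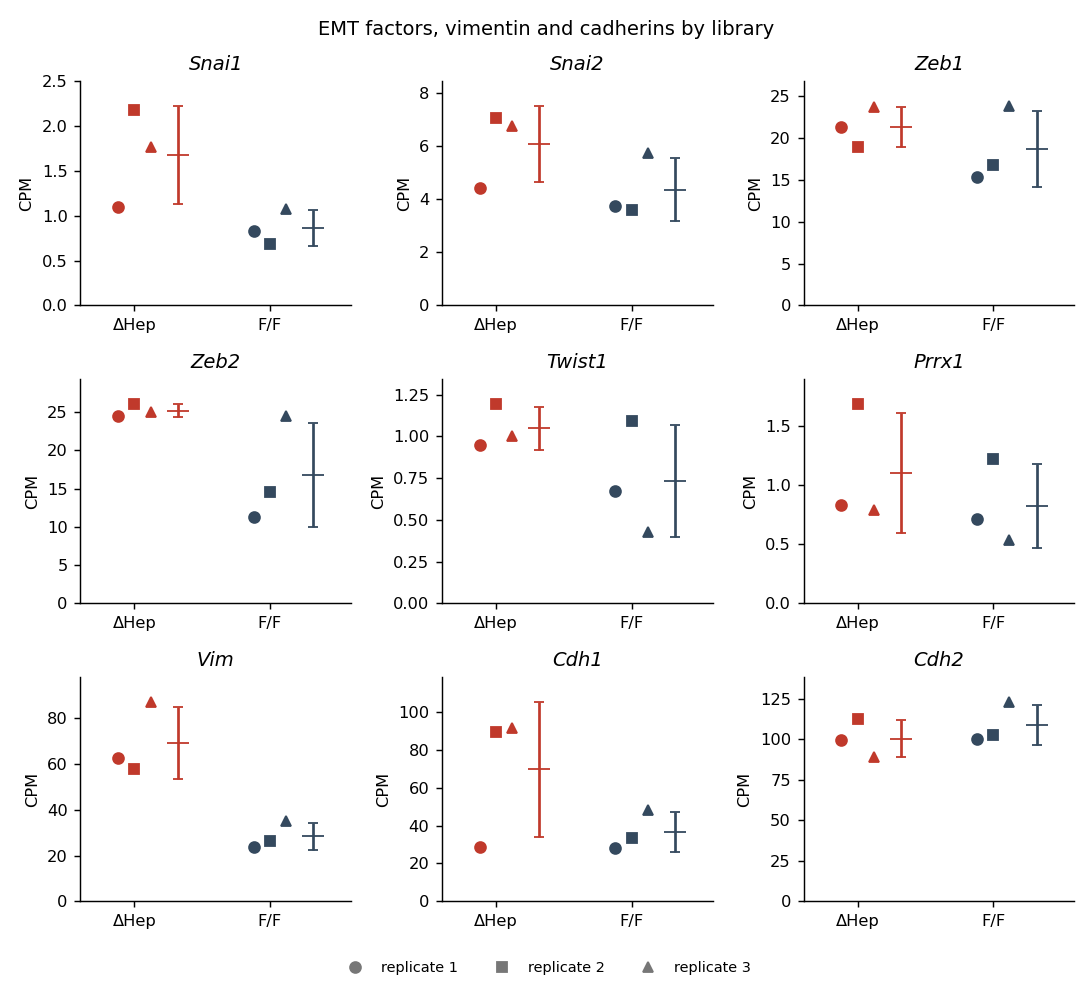
CPM (vertical axes, from 0, each with its own scale) of the 9 genes in the 3 ΔHep and the 3 F/F libraries; symbols mark replicate numbers, and the bars give mean ± SD. Vim and Snai1 are the genes whose groups do not overlap, and ΔHep replicate 1 lies with the F/F libraries for Cdh1.

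Snai1, a zinc finger repressor of Cdh1, was scarce, with 37, 71 and 67 counts in ΔHep replicates 1, 2 and 3, against 22, 22 and 30 counts in F/F replicates 1, 2 and 3. Those counts correspond to 1.10, 2.17 and 1.77 CPM in ΔHep libraries, against 0.825, 0.686 and 1.08 CPM in F/F libraries. All ΔHep values lay above all F/F values, by a narrow margin between ΔHep replicate 1 and F/F replicate 3. The log2 fold change was 0.96 (SE 0.38, 95% interval 0.09 to 1.83), with an adjusted p of 0.2 that missed the threshold. Counting error alone was 21.3% of the count in the lowest library. Snai1 lies on chromosome 2 (167538195 to 167542814, plus strand, GRCm38).

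The RefSeq start window of Snai1 is shown because it alone, among the windows found for the 9 genes, held the E-box that Snail and ZEB proteins prefer, CACCTG or, on the other strand, CAGGTG. The window runs from 250 bases before the start to 50 after it, chr2:167537945-167538244 on the plus strand of GRCm38.p6, with the E-box in capitals, 126 bases before the start.
Snai1: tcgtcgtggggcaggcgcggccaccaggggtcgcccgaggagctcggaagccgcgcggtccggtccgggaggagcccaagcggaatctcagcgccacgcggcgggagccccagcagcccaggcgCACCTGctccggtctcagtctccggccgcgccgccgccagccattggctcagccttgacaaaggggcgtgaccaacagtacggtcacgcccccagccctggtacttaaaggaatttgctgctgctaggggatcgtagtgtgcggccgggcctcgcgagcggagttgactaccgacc
Of 32851 windows of 300 bases in the RefSeq table, 20.2% held this E-box, and of the 13400 windows of tested genes 18.2% did. Windows were matched for Snai1, Zeb2, Twist1, Prrx1 and Vim, 5 of the 9 genes and 8 windows in all, of which 1 held it. The looser E-box CANNTG, which includes the first, was likewise in 1 of the 8 windows. It was in 72.3% of all windows and in 64.9% of those of tested genes. Zeb2 supplied 4 of the 8 windows, some of which overlap, so the 8 are not independent. A match of letters does not show that a protein binds there.

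Snai2, the second Snail family repressor, had 150, 231 and 256 counts in ΔHep replicates 1, 2 and 3, against 100, 116 and 160 counts in F/F replicates 1, 2 and 3. Its CPM were 4.44, 7.07 and 6.76 in ΔHep libraries, against 3.75, 3.62 and 5.74 in F/F libraries. ΔHep replicates 2 and 3 were the highest of the 6 libraries, and ΔHep replicate 1 fell between F/F values. The log2 fold change was 0.48 (95% interval -0.12 to 1.08, adjusted p = 0.331). Snai2 lies on chromosome 16 (14705852 to 14709385, plus strand). Within a library there were 4.05, 3.25 and 3.82 Snai2 counts for each Snai1 count in ΔHep replicates 1, 2 and 3, against 4.55, 5.27 and 5.33 in F/F replicates 1, 2 and 3. This ratio, which was not part of the planned tests, was lower in each ΔHep library than in each F/F library. The closest values, 4.05 and 4.55, differ by less than the counting error of Snai1 in its lowest library, 21.3%.

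Zeb1 and Zeb2, large zinc finger and homeodomain repressors, supplied most reads of the 6 factors, from 78.8% to 86.2% of their summed counts in ΔHep libraries and from 81.7% to 86.1% in F/F libraries. Zeb2 had 24.5, 26.1 and 25.1 CPM in ΔHep replicates 1, 2 and 3, against 11.3, 14.6 and 24.5 CPM in F/F replicates 1, 2 and 3. The ΔHep libraries were alike, with a coefficient of variation of 3.23%, while the F/F libraries spread over 40.9%, with F/F replicate 3 at the ΔHep level. The log2 fold change of Zeb2 was 0.59 (SE 0.25, 95% interval 0.01 to 1.16, adjusted p = 0.228). Without F/F replicate 3 it was 0.95 with an adjusted p of 0.013, a value that rests on leaving out that library. F/F replicate 3 also had the highest summed macrophage, stellate cell, endothelial and lymphocyte markers of its group.

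Zeb1 did not pass the test, with 21.3, 18.9 and 23.7 CPM in ΔHep replicates 1, 2 and 3, against 15.4, 16.8 and 23.8 CPM in F/F replicates 1, 2 and 3. The highest of the 6 values was in F/F replicate 3, and the groups overlapped. Its log2 fold change was 0.19 (95% interval -0.23 to 0.61, adjusted p = 0.59). Without F/F replicate 3 it was 0.40 (adjusted p = 0.121). Within a library Zeb2 had 1.15, 1.38 and 1.06 counts for each Zeb1 count in ΔHep replicates 1, 2 and 3, against 0.737, 0.868 and 1.03 in F/F replicates 1, 2 and 3. Zeb2 counts exceeded Zeb1 counts in every ΔHep library and in 1 F/F library, again the third. Zeb2 lies on chromosome 2 (44983632 to 45117395, minus strand) and Zeb1 on chromosome 18 (5591860 to 5775467, plus strand). The antisense gene Zeb2os overlaps the 5′ part of Zeb2 and had 67 counts over all 6 libraries. Since the strand setting of the counting is not given, reads of the pair cannot be told apart.

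Twist1 and Prrx1, factors of embryonic mesenchyme and of fibroblasts, were near the limit of what these libraries can resolve. Twist1 had 32, 39 and 38 counts in ΔHep replicates 1, 2 and 3, against 18, 35 and 12 counts in F/F replicates 1, 2 and 3. Prrx1 had 28, 55 and 30 counts in ΔHep replicates 1, 2 and 3, against 19, 39 and 15 counts in F/F replicates 1, 2 and 3. For both genes the second replicate was the highest of each group and F/F replicate 3 the lowest of the F/F libraries, unlike the other 7 genes, for which F/F replicate 3 was the highest F/F library. Counting error reached 28.9% of the count for Twist1 and 25.8% for Prrx1 in their lowest libraries.

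The log2 fold change of Twist1 was 0.51 (95% interval -0.46 to 1.47, adjusted p = 0.531) and that of Prrx1 was 0.41 (95% interval -0.67 to 1.49, adjusted p = 0.664). Intervals this wide include no change and rises of 2.77 and 2.81 times. The direction of Prrx1 hung on 1 library, since the value was -0.029 without ΔHep replicate 2. Twist1 lies on chromosome 12 (33957671 to 33959829, plus strand) and Prrx1 on chromosome 1 (163245119 to 163313710, minus strand).

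Vim was the gene that rose. It had 2110, 1885 and 3294 counts in ΔHep replicates 1, 2 and 3, against 631, 850 and 976 counts in F/F replicates 1, 2 and 3. The values in CPM were 62.5, 57.7 and 87.0 in ΔHep libraries, against 23.7, 26.5 and 35.0 in F/F libraries. The lowest ΔHep library exceeded the highest F/F library by far more than the counting error, which was 3.98% at most. The log2 fold change was 1.28 (SE 0.20, 95% interval 0.84 to 1.73), with an adjusted p of 0.0329 in edgeR. The rise passed in each of the other tools, scalings and filters run, but leaving out ΔHep replicate 2 or 3 or F/F replicate 1 or 2 raised the adjusted p to 0.0661, 0.0924, 0.145 and 0.155. Over the 6 fits with a library left out its size lay between 1.08 and 1.45.

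Vim lies on chromosome 2 (13573927 to 13582826, plus strand), and its RefSeq start window is shown as that of the gene that changed. It covers chr2:13574061-13574360 on the plus strand of GRCm38.p6 and is all in lower case because neither E-box form was found in it.
Vim: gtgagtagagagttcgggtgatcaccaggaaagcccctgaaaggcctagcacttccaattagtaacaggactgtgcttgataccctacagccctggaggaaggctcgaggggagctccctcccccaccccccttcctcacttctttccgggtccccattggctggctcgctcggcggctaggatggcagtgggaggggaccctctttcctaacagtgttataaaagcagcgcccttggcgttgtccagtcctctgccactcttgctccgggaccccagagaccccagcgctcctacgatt
The window of Vim had a G and C content of 59.3%, against 70.0% for that of Snai1. No match says only that these letters are not in this window.

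Markers of several vimentin-making cells were higher in the same libraries. In bulk RNA, more cells of a type and more RNA per cell cannot be told apart. The 20 stellate cell and fibroblast markers summed to 1097, 1380 and 1338 CPM in ΔHep replicates 1, 2 and 3, against 578, 652 and 836 CPM in F/F replicates 1, 2 and 3. Of them 10 rose and 0 fell, with a median log2 fold change of 1.05. DESeq2 called 15 of them and limma-voom 4, beside 9.0% and 0.605% of all tested genes in either direction. At an unadjusted p below 0.05 in edgeR the shares over all tested genes were 14.1% upward and 6.97% downward. The counts of every list below are to be read beside these shares. Among the strongest calls, Lum, a proteoglycan of collagen fibres, had a log2 difference of 1.49 (SE 0.20), Cygb, a globin of stellate cells, 1.13 (SE 0.16), Col6a3, a collagen VI chain, 1.98 (SE 0.30), and Bgn, the proteoglycan biglycan, 0.88 (SE 0.14).

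Within a library, the log2 ratio of Vim counts over the summed stellate cell and fibroblast marker counts was -4.13, -4.58 and -3.94 in ΔHep replicates 1, 2 and 3, against -4.61, -4.62 and -4.58 in F/F replicates 1, 2 and 3. The mean difference of 0.39 did not pass (exact two-sided permutation p = 0.2, where 3 against 3 libraries allow 0.1 at least). ΔHep replicate 2 lay with the F/F libraries. Taking the median ratio to the single markers in place of their sum gave a difference of -0.014, so the direction depended on how the markers were combined. What part these cells had in the level of Vim was not tested.

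Macrophage and Kupffer cell markers summed to between 923 and 1137 CPM in ΔHep libraries and between 374 and 947 CPM in F/F libraries. Of 16 such markers 3 rose, namely Gpnmb, a glycoprotein of lipid-laden macrophages (log2 fold change 3.43, SE 0.30), Ccr2, the chemokine receptor of monocytes (2.22, SE 0.38), and Trem2, a lipid-sensing receptor (2.63, SE 0.49). Cd68, a lysosomal glycoprotein, had a log2 difference of 1.19 (adjusted p = 0.0608), and the list's median was 0.87. DESeq2 called 8 of these markers and limma-voom 1, Gpnmb. Endothelial markers summed to between 813 and 951 CPM in ΔHep libraries and between 448 and 763 CPM in F/F libraries, and 1 of 15 rose, the TGF-β co-receptor Eng (0.73, SE 0.14), with 5 called by DESeq2 and 0 by limma-voom. Tie1, a receptor kinase, Vwf, von Willebrand factor, and Stab1, a scavenger receptor, had log2 differences of 0.66 (adjusted p = 0.0651), 0.98 (adjusted p = 0.0874) and 0.72 (adjusted p = 0.0958). Lymphocyte markers were at low levels, between 28.3 and 52.5 CPM in ΔHep libraries and between 12.1 and 19.9 CPM in F/F libraries in sum. None of 14 tested passed in edgeR (0), with 9 reaching an unadjusted p below 0.05, 4 called by DESeq2 and 0 by limma-voom. Jchain, the antibody joining chain, Ccl5, a T cell chemokine, Il2rb, a cytokine receptor chain, and Cd3d, a T cell receptor chain, had log2 differences of 1.37 (adjusted p = 0.0649), 2.47 (adjusted p = 0.0667), 1.19 (adjusted p = 0.0673) and 2.25 (adjusted p = 0.121). The part of these cells in the level of Vim was not tested.

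**Figure D3:**
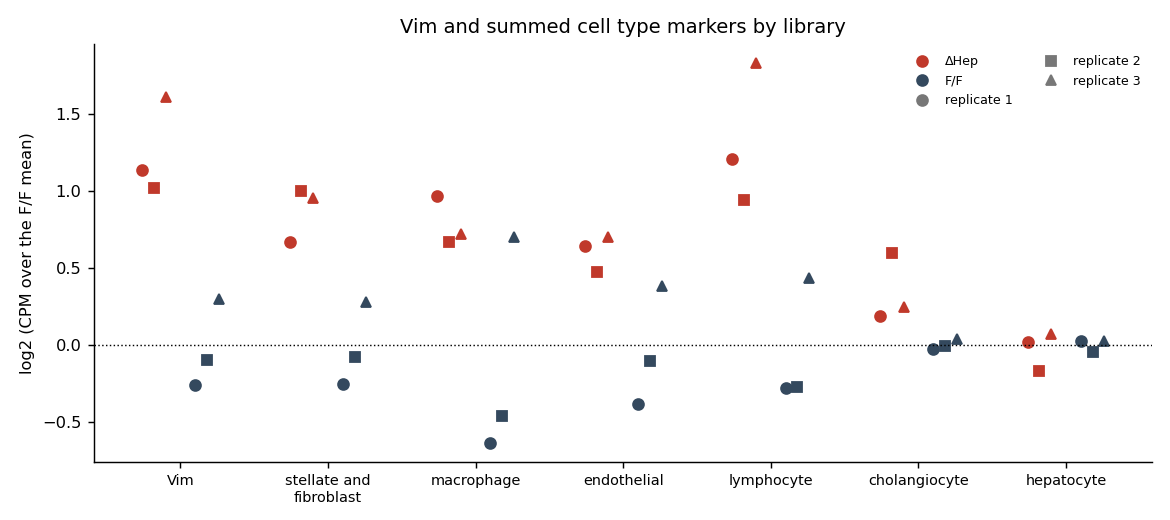
Log2 of CPM over the F/F mean (vertical axis) for Vim and for the summed markers of 6 cell types in each ΔHep (red) and F/F (dark) library. ΔHep libraries lie above F/F libraries for Vim and for stellate, endothelial, lymphocyte and cholangiocyte markers, F/F replicate 3 reaches the ΔHep range for macrophage markers, and hepatocyte markers overlap.

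The genes whose pattern over the 6 libraries was most like that of Vim were Cd74, Akna, Lair1 and Rac2. Likeness was the root mean square distance between log2 CPM values centred on each gene's mean, among 9520 genes with a mean of at least 5 CPM. The distances were 0.09, 0.12, 0.13 and 0.13, against a median of 0.72 over all genes. Cd74, the invariant chain of MHC class II, ran from 105 to 144 CPM in ΔHep libraries, against 38.6 to 58.2 CPM in F/F libraries. Likeness over 6 libraries of 2 genotypes is a description only.

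Cdh1, which encodes E-cadherin, the main adhesion molecule of epithelial cell contacts, did not fall in ΔHep libraries. It had 28.6, 89.0 and 91.2 CPM in ΔHep replicates 1, 2 and 3, against 28.0, 33.2 and 48.4 CPM in F/F replicates 1, 2 and 3. ΔHep replicates 2 and 3 lay far above every F/F library, while ΔHep replicate 1 lay between the lowest 2 F/F libraries. The spread within ΔHep was the widest of the 9 genes, with a coefficient of variation of 51.0%, against 28.9% in F/F. The log2 fold change was 0.93 (SE 0.40, 95% interval 0.02 to 1.84, adjusted p = 0.228). Without ΔHep replicate 1 it was 1.30 with an adjusted p of 0.0374, a value that rests on leaving out the lowest ΔHep library. Leaving out any other single library gave an adjusted p from 0.145 to 0.513.

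Markers of bile duct epithelium, where E-cadherin is also made, were higher in ΔHep. Cholangiocyte markers summed to 263, 348 and 273 CPM in ΔHep replicates 1, 2 and 3, against 226, 229 and 236 CPM in F/F replicates 1, 2 and 3. Of 9 tested markers 4 rose: St14, a membrane protease (log2 fold change 1.84, SE 0.33), Tspan8, a tetraspanin (2.90, SE 0.50), Aqp1, a water channel (0.60, SE 0.11), and Muc1, a mucin (2.07, SE 0.40). DESeq2 called 5 of the 9, while limma-voom called 0. Aqp1 was the largest part of the summed cholangiocyte markers in every library, at 155, 167 and 163 CPM in ΔHep replicates 1, 2 and 3. What part bile duct cells had in the level of Cdh1 was not tested. Cdh1 lies on chromosome 8 (106603351 to 106670246, plus strand).

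Cd276, Unc13b, Sort1 and Synj2 had the patterns most like that of Cdh1, at distances of 0.17, 0.20, 0.22 and 0.25, against a median of 0.74 over all genes. Cd276, an immune checkpoint ligand of the B7 family, had 4.12, 12.6 and 9.56 CPM in ΔHep replicates 1, 2 and 3, against 3.64, 4.05 and 5.77 CPM in F/F replicates 1, 2 and 3. In all 4 genes ΔHep replicate 1 was the lowest ΔHep library, as it was for Cdh1. None of them passed the test (0 of 4 in edgeR), and their adjusted p ranged from 0.2 to 0.375.

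Cdh2, which encodes N-cadherin, was steady. It had 99.7, 112 and 89.0 CPM in ΔHep replicates 1, 2 and 3, against 100.3, 103 and 123 CPM in F/F replicates 1, 2 and 3. The groups overlapped, and the coefficients of variation of 11.6% in ΔHep and 11.5% in F/F were close. The log2 fold change was -0.11 (SE 0.13, adjusted p = 0.656), with a 95% interval of -0.41 to 0.18. In linear terms the interval runs from 0.754 to 1.13 times, so a doubling or a halving lies outside it. Cdh2 lies on chromosome 18 (16588877 to 16809246, minus strand). Prkar2a, Ube3c, Nup160 and Ssr1 had the most similar patterns, at distances of 0.02 to 0.03 against a median of 0.22, and none of the 4 passed (0 in edgeR, adjusted p from 0.545 to 0.86).

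The ratio of the cadherins within a library needs no scaling. Cdh2 had 3.49, 1.26 and 0.976 counts for each Cdh1 count in ΔHep replicates 1, 2 and 3, against 3.58, 3.09 and 2.54 in F/F replicates 1, 2 and 3. Replicates 2 and 3 of ΔHep had the lowest ratios and ΔHep replicate 1 had an F/F value. On the log2 scale the ratio averaged 0.70 ± 0.97 in ΔHep and 1.61 ± 0.25 in F/F libraries (SD, n = 3 each), a difference of -0.90 that did not pass an exact two-sided permutation test (p = 0.3). The direction is that of relatively more E-cadherin mRNA, and it held with each library left out, between -0.54 and -1.45.

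**Figure D4:**
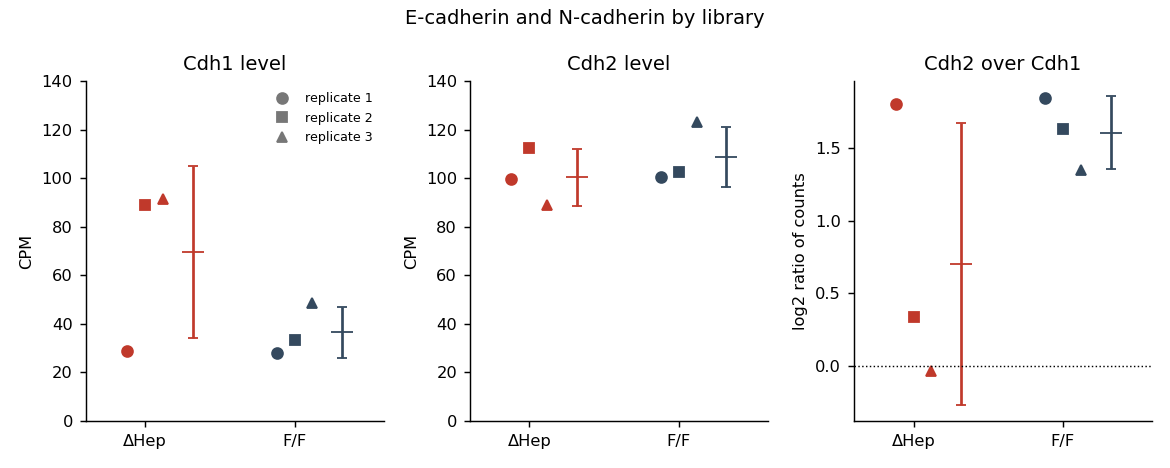
CPM of Cdh1 and of Cdh2 (left and middle, vertical axes from 0) and the log2 ratio of Cdh2 over Cdh1 counts (right) in the 3 ΔHep and 3 F/F libraries, with mean ± SD. ΔHep replicates 2 and 3 have more Cdh1 and a lower ratio than every F/F library, ΔHep replicate 1 does not, and Cdh2 overlaps between the groups.

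Genes around these 9 were counted in lists chosen from general knowledge of EMT and cell junctions, with earlier results of these data known. Their calls, like the 244 over all genes, hang on single libraries, since the count over all genes was 4, 5, 2 and 1 without ΔHep replicate 2, ΔHep replicate 3, F/F replicate 1 and F/F replicate 2, and 1246 without F/F replicate 3. Among other EMT transcription factors, 10 of 20 listed genes were tested, and 1 rose, Sox4, an SRY-box factor of progenitor and tumour cells. Sox4 had 4.59, 4.93 and 5.26 CPM in ΔHep replicates 1, 2 and 3, against 1.39, 1.40 and 1.94 CPM in F/F replicates 1, 2 and 3, a log2 difference of 1.64 (SE 0.23, adjusted p = 0.0329). The groups were far apart. Id1, an inhibitor of helix-loop-helix factors, had a log2 difference of 0.90 (adjusted p = 0.0704), Ets1, an ETS factor, 0.61 (adjusted p = 0.101) and Id2, a relative of Id1, -0.58 (adjusted p = 0.213). The median over the list was 0.26.

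Mesenchymal effector genes, which encode matrix, proteases and contractile proteins, were positive in 21 of 21 tested, and the median log2 difference was 0.78. In this list 2 rose: Tgfbi, a TGF-β-induced matrix protein (0.89, SE 0.15), and Mmp2, a gelatinase (1.95, SE 0.34). An unadjusted p below 0.05 was reached by 12 upward and 0 downward. DESeq2 called 8 and limma-voom 1. Mmp2 had 6.43, 16.9 and 14.9 CPM in ΔHep replicates 1, 2 and 3, against 3.11, 3.27 and 3.51 CPM in F/F replicates 1, 2 and 3, so that ΔHep replicate 1 was again the lowest of its group. Sparc, a matrix glycoprotein, and Fbn1, fibrillin, had log2 differences of 0.98 (adjusted p = 0.0789) and 1.41 (adjusted p = 0.0797). Stellate cell and fibroblast markers, with a median of 1.05, were higher in the same libraries, and their part in this list was not tested.

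Factors that keep the epithelial state did not move one way. None of 13 tested passed in edgeR (0) or limma-voom (0), and DESeq2 called 2 higher and 2 lower. An unadjusted p below 0.05 was reached by 3 upward and 3 downward, and the median log2 difference was -0.09. Klf5, a Krüppel-like factor of gut and duct epithelium, and Esrp1, an epithelial splicing regulator, had log2 differences of 3.10 (adjusted p = 0.0730) and 2.52 (adjusted p = 0.0687) at means of 1.40 and 0.681 CPM in ΔHep and 0.156 and 0.114 CPM in F/F libraries. Foxa1 and Cebpa, factors of the hepatocyte, pointed the other way, with log2 fold changes of -0.60 (adjusted p = 0.0640) and -0.62 (adjusted p = 0.0910). Cebpa had 271, 351 and 304 CPM in ΔHep replicates 1, 2 and 3, against 514, 531 and 377 CPM in F/F replicates 1, 2 and 3, without overlap.

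Partners of the cadherins at the junction were close to level. Of 10 tested catenins, nectins and linkers 0 passed in edgeR, DESeq2 or limma-voom, 1 reached an unadjusted p below 0.05, and the median log2 difference was 0.06. Jup, plakoglobin, had the lowest p, with 54.2, 66.4 and 56.2 CPM in ΔHep replicates 1, 2 and 3, against 46.7, 53.4 and 46.4 CPM in F/F replicates 1, 2 and 3 (log2 difference 0.27, SE 0.12, adjusted p = 0.226). Vcl, the actin linker vinculin, had a log2 difference of 0.19 (adjusted p = 0.314), and the adhesion molecules Nectin3 and Nectin2 of -0.18 (adjusted p = 0.323) and -0.26 (adjusted p = 0.467).

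Of 18 other cadherins and protocadherins tested, 0 passed in edgeR or limma-voom and DESeq2 called 3 higher. Of them 16 were positive, the median was 0.28, and an unadjusted p below 0.05 was reached by 6 upward and 0 downward. Pcdh17 and Pcdh7, protocadherins, had log2 differences of 1.69 (adjusted p = 0.0658) and 1.32 (adjusted p = 0.105). Cdh6 and Cdh3, the kidney and placental cadherins, had 2.34 (adjusted p = 0.0984) and 1.45 (adjusted p = 0.159), at means of 1.59 and 0.721 CPM in ΔHep and 0.315 and 0.259 CPM in F/F libraries.

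Tight junction and desmosome genes were positive in 17 of 21 tested, with a median of 0.23. With edgeR 0 passed, with limma-voom 0 and with DESeq2 1, and an unadjusted p below 0.05 was reached by 6 upward and 0 downward. Cldn14, a claudin, had a log2 difference of 0.69 (adjusted p = 0.0666), Tjp1, the scaffold ZO-1, 0.37 (adjusted p = 0.134), Dsc2, a desmosomal cadherin, 0.36 (adjusted p = 0.154), and Evpl, envoplakin, 1.48 (adjusted p = 0.134). Tjp1 had 71.4, 69.0 and 72.2 CPM in ΔHep replicates 1, 2 and 3, against 48.4, 52.1 and 63.6 CPM in F/F replicates 1, 2 and 3, and the groups did not overlap.

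Among other intermediate filaments 2 of 14 rose, and both were epithelial. Krt19 and Krt7, keratins of bile duct cells, had log2 differences of 2.47 (SE 0.40, adjusted p = 0.0346) and 1.95 (SE 0.37, adjusted p = 0.0449). Krt19 had 6.34, 10.2 and 3.70 CPM in ΔHep replicates 1, 2 and 3, against 0.975, 1.62 and 1.00 CPM in F/F replicates 1, 2 and 3. Des, the muscle and stellate cell filament desmin, and Synm, its partner synemin, had log2 differences of 0.79 (adjusted p = 0.135) and 0.96 (adjusted p = 0.134). The list's median was 0.36. DESeq2 called 3 of the 14, and limma-voom called 0, so neither keratin passed there. Cholangiocyte markers, whose summed level was higher in every ΔHep library than in every F/F library, moved with these keratins, and their part in this was not tested.

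Mesothelial markers, which cells of the liver surface would add, were low, between 6.04 and 12.9 CPM in ΔHep libraries and between 5.31 and 9.52 CPM in F/F libraries in sum. None of 7 tested passed in edgeR (0) or limma-voom (0), DESeq2 called 2 higher, and 2 reached an unadjusted p below 0.05. Wt1, the Wilms tumour factor, and Msln, mesothelin, had log2 differences of 2.08 (adjusted p = 0.101) and 1.30 (adjusted p = 0.12), Muc16, a mucin, -0.57 (adjusted p = 0.466) and Upk1b, a uroplakin, -0.72 (adjusted p = 0.669). Hepatocyte markers had a median of -0.03, and 0 of 14 passed in edgeR, DESeq2 or limma-voom, with 1 reaching an unadjusted p below 0.05, downward. The 4 with the lowest p all pointed down: Cyp3a11 and Cyp2e1, drug-metabolising enzymes, had log2 differences of -0.40 (adjusted p = 0.216) and -0.59 (adjusted p = 0.276), Hpd, a tyrosine-degrading enzyme, -0.29 (adjusted p = 0.343) and Ttr, transthyretin, -0.19 (adjusted p = 0.54).

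**Figure D5:**
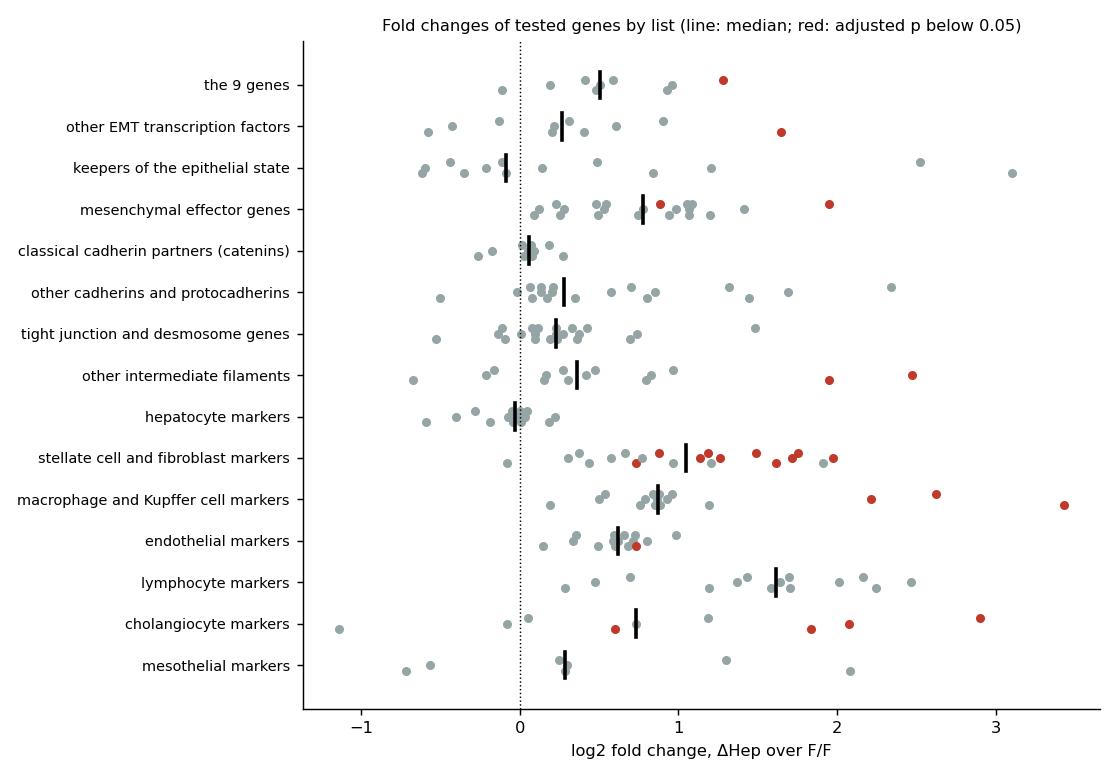
Log2 fold change of ΔHep over F/F (horizontal axis) of each tested gene, in rows by list, with the median as a black line and genes at an adjusted p below 0.05 in red. Stellate cell, macrophage and lymphocyte markers have medians of 1.05, 0.87 and 1.61, while the 9 genes have 0.51, catenins 0.06 and hepatocyte markers -0.03.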

How the data were processed

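What the authors deposited is a single table of unnormalized counts, with gene symbols in rows and the 6 libraries in columns. The submitters' processing notes name HISAT2 2.0.4 and the mm10 build. The counting program, annotation, strand setting and gene filter were not stated in the sources used, so reads of overlapping or near-identical genes are uncertain. From the counts, edgeR 4.0.16 (R 4.3.3) kept 14552 genes with filterByExpr (minimum count 10, minimum total 15), scaled libraries by TMM and compared ΔHep with F/F by its quasi-likelihood test, two-sided, adjusted by Benjamini-Hochberg at 0.05. SE is the log2 fold change divided by the square root of F, and 95% intervals use the t distribution with the model's degrees of freedom. The common biological coefficient of variation was 21.5%. DESeq2 1.42.0, limma 3.58.1 (voom), other scalings, no filter, a replicate block and leaving out each library were alternatives. Counting errors are 100 divided by the square root of a count and cover counting error only. The edgeR test was tested on simulated data.

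Within groups, a chi-square of counts per degree of freedom was 18.7 to 118, so all libraries were kept as separate samples. The 9 genes and the 14 lists around them were chosen with earlier results of these data known. Named from each list were up to 4 tested genes with the lowest unadjusted p. Zeb2os, and the Snai2 to Snai1 and Zeb2 to Zeb1 ratios, were chosen after their values were seen. Patterns used log2(CPM + 0.5). Exon lengths and positions are from GENCODE M21 (GRCm38), and start windows from RefSeq (GRCm38.p6).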

Additional observations from a re-analysis of the deposited data

How the results depend on the processing

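All 9 genes kept their direction in each fit run except Prrx1 (-0.029 without ΔHep replicate 2, up to 0.81 without F/F replicate 2). Vim passed with both other scalings, no filter, DESeq2 and limma-voom. Leaving out single libraries put its log2 fold change between 1.08 and 1.45 and moved the number of the 9 genes past the threshold to between 0 and 2. The second gene was Cdh1 without ΔHep replicate 1 (1.30; range 0.69 to 1.30) or Zeb2 without F/F replicate 3 (0.95; range 0.38 to 0.95). Over all genes the 244 calls became 644 with library totals, 1309 with DESeq2, 88 with limma-voom and between 1 and 1246 with a library left out (1 without F/F replicate 2, 1246 without F/F replicate 3). Library totals shifted the median of all genes by 0.09.

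The ratio of Vim to stellate cell and fibroblast markers turned to -0.014 with the median of single ratios. Among other named genes, Upk1b turned to 0.0030 with limma-voom, and Nup160 to 0.037 with library totals, 0.021 without ΔHep replicate 3 and 0.036 without F/F replicate 3 (lowest -0.14). List medians turned for factors of the epithelial state (0.011 with library totals, 0.14 without a filter), hepatocyte markers (0.065 with library totals) and mesothelial markers (-0.017 without ΔHep replicate 2, up to 0.69 without ΔHep replicate 1). The causes were not tested.

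The libraries share replicate numbers, but same-numbered pairs correlated at 0.15, -0.08 and -0.02, so the numbers were not taken to pair samples. With a replicate block 236 genes passed, Vim was at 1.28 in log2 (adjusted p = 0.0176) and no other of the 9 genes passed. Depth limits Twist1, Prrx1 and Snai1.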
